A study of Rattus norvegicus with 24 samples.

Results

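The calcineurin, NFAT and MEF2 pathway was followed in rat myocardium through 9 genes: the calcineurin subunits Ppp3ca, Ppp3cb and Ppp3r1, the regulators Rcan1 and Rcan2, the transcription factor Nfatc3 and the MEF2 factors Mef2a, Mef2c and Mef2d. Of these, 8 are listed in all 4 deposited tables, among 10797 genes listed in any table and 10129 listed in all of them. Mef2c is listed in no table and has no value here, so every count below is out of 8.

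The 24 libraries came from Sprague-Dawley rats. Mitral regurgitation (MR), a leak of blood back through the mitral valve that loads the heart with extra volume, was made by perforating the mitral leaflet through a left thoracotomy, and Sham rats had the operation without the perforation. MR hearts were sampled at 2, 10, 20 or 40 weeks after the operation, with 4 libraries at 2 weeks and 5 at each later time, and all 5 Sham libraries were taken at 2 weeks. The time since the operation, with the age and handling that go with it, and the disease therefore cannot be told apart in the comparisons of MR at 10, 20 or 40 weeks with Sham. The same holds for the comparisons between MR times, since no Sham library was taken later than 2 weeks. Sex, age, batch and chamber of the heart are not labelled, and nothing states that the libraries are separate animals, so p-values measure the spread between these libraries, which may be technical.

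Calcineurin is a phosphatase switched on by calcium and calmodulin. It is made of a catalytic subunit (from Ppp3ca, Ppp3cb or Ppp3cc) and a regulatory subunit (from Ppp3r1), and it removes phosphates from NFAT factors, which then enter the nucleus. MEF2 factors bind DNA beside other muscle regulators and are held back by class IIa histone deacetylases until calcium-dependent kinases release them. In the heart both branches are known for their part in hypertrophic growth, and Rcan1 is itself a known target of calcineurin and NFAT that restrains the enzyme. None of this says how active the enzyme or the factors were here, since only RNA was measured.

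The libraries held 7.69 to 12.1 M reads on listed genes, and the 10 most read genes took 14.03 to 19.3% of them, with overlapping ranges between all groups. The tissue label was checked by marker genes. All 6 cardiomyocyte markers were listed, and their summed level was 18716 to 38836 normalised reads in every library, against 2.11 to 23.4 for the atrial markers Myl7 and Myl4. Adipoq, Plin1, Sln, Cd3e and Cd3d are not listed. Members had between 141 reads (Nfatc3 in a Sham library) and 10719 reads (Rcan1 in an MR library at 40 weeks). In bulk tissue, a change in the number of cells of a type and a change in RNA per cell cannot be told apart.

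At 40 weeks of MR all 8 listed members were higher than in Sham, by 1.32-fold for Ppp3ca to 2.13-fold for Mef2a, while at 2, 10 and 20 weeks none differed from Sham past the test. The genes that about doubled were Ppp3cb, a catalytic subunit of calcineurin, and the MEF2 factors Mef2a and Mef2d. Nfatc3, Rcan1, Rcan2, Ppp3r1 and Ppp3ca rose by less. Rcan1 averaged 397 normalised reads at 20 weeks and 420 at 40 weeks of MR, and at 20 weeks it was higher than at 2 weeks of MR. Values are normalised read counts, which are gene reads divided by a factor for the library, and differences are given as log2 fold changes of log2(value + 1), on which 1 stands for a doubling. The test was limma, a linear model that shares the estimate of spread across genes, and a gene is said to pass when its p, adjusted over all genes by Benjamini-Hochberg, is under 0.05.

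Across all genes, 16.3% of 10094 passed as higher at 40 weeks against Sham (1648) and 30.9% as lower (3124), set beside 8 of 8 members. The members were chosen with earlier results of these data known, so this count describes them and does not test the pathway. Of their listed relatives, Nfatc1 passed as higher and Nfat5 as lower, while Ppp3cc, Nfatc2 and Nfatc4 did not pass in this fit. The median log2 fold change was 0.77 over the members and -0.15 over all genes. When each library was rescaled by its median ratio to all libraries, the median over all genes was -0.01, 2391 of 4587 passing genes were higher (23.7% of those tested, with 21.8% lower), and the members' median was 0.92 with 8 of 8 again higher. Within the deposited 40-week table, every MR library lay above every Sham library for 4 members (Ppp3cb, Ppp3r1, Mef2a and Mef2d) and for 9.06% of all genes. On a scale that joins the 4 tables by median ratios, all 8 members were apart in this way, Ppp3ca narrowly (17.2 against 16.6). The share of all genes apart on that scale is not given here. The 40-week levels and overlaps given gene by gene below are those of the deposited table.

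**Figure D1:**
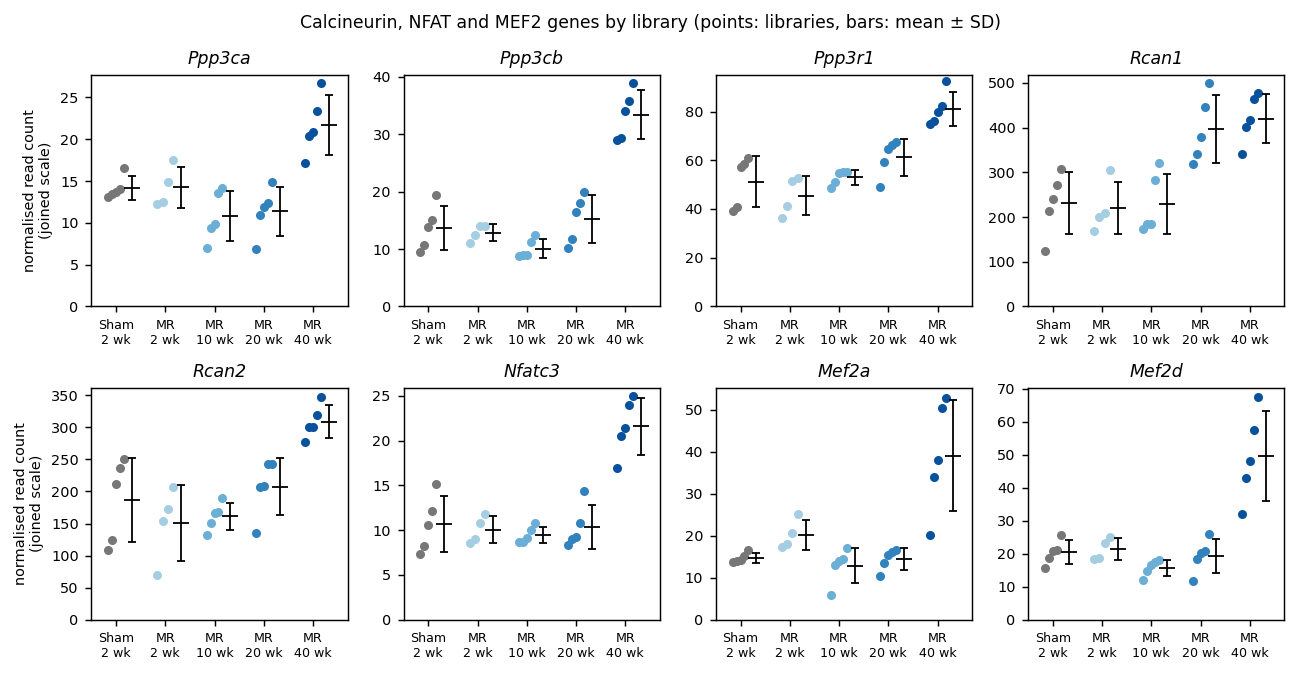
Normalised read count (vertical axis, linear, on the scale that joins the 4 tables) of the 8 listed members in each of the 24 libraries, for Sham at 2 weeks and MR at 2, 10, 20 and 40 weeks; points are libraries and bars the mean ± SD. On this scale every MR library at 40 weeks stands above every Sham library for all 8 members. Within the deposited 40-week table this held for 4 of them (Ppp3cb, Ppp3r1, Mef2a and Mef2d). Rcan1 averages 397 at 20 weeks and 420 at 40 weeks.

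The catalytic subunits of calcineurin were read first. Ppp3cb (chromosome 15, 4209702 to 4236891, plus strand, rat build rn6) encodes the beta form of the catalytic subunit. It had 27.1, 30.1, 27.0, 35.1 and 29.5 normalised reads in MR at 40 weeks, against 16.01, 10.6, 8.93, 14.96 and 19.5 in Sham. All 5 MR libraries lay above all 5 Sham libraries. This was a log2 fold change of 1.08 ± 0.18 (SE; limma, adjusted p = 0.000474).

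Ppp3ca (chromosome 2, 241909832 to 242184863, plus strand) encodes the alpha form. Its level was 18.8, 20.7, 16.1, 18.8 and 22.0 in MR at 40 weeks, against 13.9, 13.8, 12.6, 14.8 and 16.7 in Sham. The lowest MR library (replicate 3) lay just under the highest Sham library (replicate 5), and the other libraries were apart. Its log2 fold change of 0.40 ± 0.12 was the smallest among the members (adjusted p = 0.0155).

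Ppp3r1 (chromosome 14, 100322735 to 100360707, plus strand) encodes the calcium-binding regulatory subunit shared by both catalytic forms. It read 73.7, 66.2, 71.0, 74.2 and 75.9 in MR at 40 weeks, against 61.0, 38.5, 38.2, 65.6 and 58.9 in Sham. The groups did not overlap, although the gap was narrow, since Sham libraries fell into 3 near 60 and 2 near 38. Ppp3r1 rose by 0.49 ± 0.16 on the log2 scale (adjusted p = 0.0226), and the call was lost without Sham replicate 2 (adjusted p = 0.0632) or Sham replicate 3 (adjusted p = 0.0527).

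The balance of the catalytic forms was compared within each library, which cancels the library factor. The log2 ratio of Ppp3cb to Ppp3ca was 0.63 ± 0.19 in MR at 40 weeks and -0.09 ± 0.33 in Sham (SD, n = 5 each), with ranges of 0.42 to 0.90 in MR and -0.50 to 0.22 in Sham that did not overlap. The difference of 0.72 had a two-sided exact permutation p of 0.00794, the smallest that 5 against 5 allow. Its adjusted p over the 8 ratio tests run was 0.0635, the lowest that 1 ratio alone could reach. The test could therefore not pass for 1 ratio alone, however far apart the groups were. At 20 weeks the difference in this ratio was 0.51 (exact permutation p = 0.0794), at 10 weeks 0.02 and at 2 weeks -0.05. Because the 2 genes differ in length, the ratio says nothing of which form was more abundant.

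Rcan1 and Rcan2, the regulators of calcineurin, both had wide spreads among Sham libraries. Rcan1 (chromosome 11, 32539689 to 32550524, minus strand) encodes a protein that binds the catalytic subunit and inhibits it when abundant. Its level was 384, 301, 375, 430 and 382 in MR at 40 weeks, against 328, 237, 116, 293 and 216 in Sham. A single pair of libraries crossed, MR replicate 2 being below Sham replicate 1. Rcan1 rose by 0.73 ± 0.23 on the log2 scale (adjusted p = 0.0204).

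Rcan2 (chromosome 9, 19518568 to 19749146, minus strand) encodes a relative of Rcan1 found in heart, brain and skeletal muscle. It read 256, 283, 281, 313 and 247 in MR at 40 weeks, against 252, 123, 102, 271 and 213 in Sham. Sham replicates 1 and 4 lay within the MR range and the other Sham libraries below it. The log2 fold change was 0.62 ± 0.24 with an adjusted p of 0.0488, just inside the threshold. The call was lost on leaving out any MR library, or Sham replicate 2 or 3 (adjusted p between 0.0656 and 0.128).

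The sequence before the start of Rcan1 is shown because Rcan1 is the member best known as a target of NFAT. The window runs from 250 bases before to 50 bases after a RefSeq start on assembly GRCr8, chr11:45118187-45118486 on the minus strand, written 5′ to 3′ along the gene with matches to the NFAT core GGAAA on either strand in capitals.
Rcan1: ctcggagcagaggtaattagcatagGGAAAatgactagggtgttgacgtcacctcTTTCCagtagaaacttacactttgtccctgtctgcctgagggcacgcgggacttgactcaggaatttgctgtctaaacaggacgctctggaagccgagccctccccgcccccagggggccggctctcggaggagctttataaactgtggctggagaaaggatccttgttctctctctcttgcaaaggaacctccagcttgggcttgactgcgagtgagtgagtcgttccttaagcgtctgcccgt
The window held 2 matches. At least 1 match was present in 62.5% of the 27457 rat promoter windows of this length, so a match is common. Whether reads of Rcan1 began at this start was not measured.

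Nfatc3 (chromosome 19, 38039729 to 38114004, plus strand) encodes an NFAT factor that calcineurin dephosphorylates and that is known to act in pathological growth of the mouse heart. It had 18.9, 21.2, 15.9, 19.3 and 20.55 normalised reads in MR at 40 weeks, against 7.78, 8.10, 9.91, 16.4 and 12.2 in Sham. Only Sham replicate 4 reached the MR range, where it exceeded MR replicate 3. Nfatc3 rose by 0.81 ± 0.18 on the log2 scale (adjusted p = 0.00236).

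Mef2a (chromosome 1, 128209966 to 128341264, minus strand) encodes a MEF2 factor abundant in adult heart muscle. Its level was 31.4, 33.5, 18.8, 45.4 and 43.5 in MR at 40 weeks, against 15.3, 15.02, 13.1, 17.9 and 13.9 in Sham. MR libraries varied far more than Sham libraries, and MR replicate 3 was close to the Sham range while the other 4 were far above it. Mef2a rose by 1.09 ± 0.20 on the log2 scale (adjusted p = 0.000784).

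Mef2d (chromosome 2, 187512164 to 187538028, plus strand) encodes a MEF2 factor required for stress-induced growth of the mouse heart. It read 39.7, 42.6, 29.9, 60.8 and 47.2 in MR at 40 weeks, against 16.7, 20.7, 19.4, 20.3 and 25.8 in Sham. The groups did not overlap, with MR replicate 3 again the lowest MR library and replicate 4 the highest. The log2 fold change was 1.04 ± 0.17 (adjusted p = 0.000469). The log2 ratio of Mef2d to Mef2a, described without a test, was 0.38 ± 0.20 in MR at 40 weeks and 0.45 ± 0.31 in Sham (SD, n = 5 each).

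The window before the start of Mef2a is shown because, of the 7 members with a RefSeq promoter entry (Rcan1, Rcan2, Ppp3ca, Ppp3cb, Ppp3r1, Mef2a and Mef2d), it alone held the MEF2 consensus motif. It lies at chr1:130392113-130392412 on the minus strand of GRCr8, and the match is in capitals.
Mef2a: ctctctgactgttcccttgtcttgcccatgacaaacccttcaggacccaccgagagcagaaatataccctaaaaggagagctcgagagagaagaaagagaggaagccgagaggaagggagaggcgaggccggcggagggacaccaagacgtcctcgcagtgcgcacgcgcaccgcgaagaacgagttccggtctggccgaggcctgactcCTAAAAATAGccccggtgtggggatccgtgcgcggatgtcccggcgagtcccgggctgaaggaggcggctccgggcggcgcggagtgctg
The consensus, searched on both strands, occurred in 3.37% of the 27457 windows. The match is a description of the letters and not evidence of binding. The NFAT core GGAAA occurred once each in the windows of Ppp3cb and Ppp3r1 and in none of those of Rcan2, Ppp3ca, Mef2a and Mef2d.

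The same libraries stood at the ends of a group for several members. Among MR libraries at 40 weeks, replicate 3 was the lowest for 5 of the 8 members and replicate 4 the highest for 5. Among Sham libraries, replicate 3 was the lowest for 6 of 8, including both regulators, where it had 116 normalised reads of Rcan1 and 102 of Rcan2. Without Sham replicate 2 or 3, 6 members passed at 40 weeks, and without any other single library at least 7 did. Over all genes, 13.1 to 17.2% passed as higher in the fits without a library.

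Gene length moved with the change at 40 weeks over the whole table. Genes were split into quartiles by the span of their row, and the median log2 fold change was -0.38, -0.20, -0.07 and 0.08 from the shortest to the longest quartile, with 7.05%, 11.1%, 18.99% and 28.2% of genes passing as higher. None of the members lay in the shortest quartile. Rcan1 lay in the second, Mef2d, Ppp3cb and Ppp3r1 in the third, and Mef2a, Nfatc3, Ppp3ca and Rcan2 in the longest. The part of gene length in the members' change was not tested.

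Markers of cell types were read at 40 weeks beside all genes, of which 16.3% passed as higher and 30.9% as lower. The sums are on the scale that joins the tables, while the calls are from the fit within the deposited 40-week table. Marker calls after rescaling are not given here. The summed pericyte markers were 144 to 216 in MR and 121 to 169 in Sham, with Rgs5 and Abcc9 higher and Pdgfrb lower (3 of 3 passing). The summed endothelial markers were 337 to 487 in MR and 379 to 566 in Sham, with 1 of 5 higher and 3 lower. Fibroblast sums were 397 to 595 in MR and 358 to 969 in Sham, with 1 of 5 higher and 1 lower, and macrophage sums 23.3 to 56.1 in MR and 35.5 to 81.7 in Sham, with 2 of 5 lower. The cardiomyocyte sums were 20553 to 34589 in MR and 31156 to 36118 in Sham, with Ryr2 higher, Tnni3 lower and the other 4 not passing. Smooth muscle markers had 0 of 4 passing, T cell markers 0 of 1 and the lone adipocyte marker Cfd was lower. The atrial marker Myl4 was lower too. No listed gene of any kind was at 0 in any library, so the lack of a 0 says nothing about the markers. The part of these differences in the members' change was not tested.

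At the earlier times the same 5 Sham libraries served as the reference, so the 3 comparisons share them. At 2 weeks, 0 of 8 members passed, as did 0% of 10173 genes by limma, with 556 genes at an unadjusted p under 0.05, 0 genes passing by edgeR and 65 by DESeq2. Only Mef2a was above Sham on the log2 scale: it read 25.2, 21.2, 17.3 and 17.6 in MR, against 16.3, 15.8, 13.6, 18.7 and 14.6 in Sham. The difference of 0.34 ± 0.16 had an unadjusted p of 0.0510 and an adjusted p of 0.840. The other 7 members lay between -0.42 (Rcan2) and -0.02 (Mef2d, which was at 0.05 after rescaling).

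At 10 weeks, 0 of 8 members passed and 0.168% of 10096 genes did. The lowest values were those of Ppp3ca (-0.34 ± 0.16), Ppp3cb (-0.32 ± 0.19) and Mef2d (-0.28 ± 0.14), with adjusted p of 0.427, 0.533 and 0.456 by limma. None of them had an unadjusted p under 0.05. Ppp3r1 (0.14) and Rcan1 (0.07) were above 0, and Rcan1 changed sign on rescaling (-0.01).

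At 20 weeks, 0 of 8 members passed and 0.0698% of 10025 genes did. Rcan1 came nearest. It had 335, 537, 317, 441 and 359 normalised reads in MR, against 321, 237, 118, 285 and 213 in Sham, so that 4 of 5 MR libraries lay above every Sham library and MR replicate 3 just below Sham replicate 1. The log2 fold change of 0.81 ± 0.24 was as large as at 40 weeks, with an unadjusted limma p of 0.00449 and an adjusted p of 0.273. Ppp3ca was at -0.34 ± 0.15 (unadjusted p = 0.0462, adjusted p = 0.514), and the other 6 members lay between -0.11 (Mef2d) and 0.26 (Ppp3r1).

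**Figure D2:**
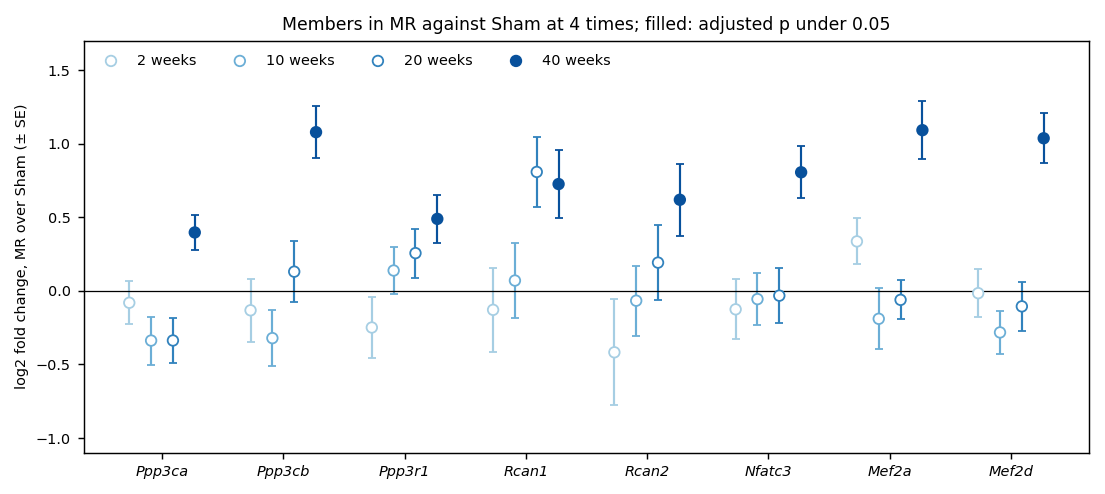
Log2 fold change of MR over Sham (vertical axis, ± SE from limma) for the 8 members at 2, 10, 20 and 40 weeks; filled points passed at an adjusted p under 0.05 and open points did not. All 8 points at 40 weeks are filled and above 0, and the open point of Rcan1 at 20 weeks (0.81) stands beside its filled point at 40 weeks (0.73).

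The ratio of Rcan1 to Rcan2 was also taken within each library. On the log2 scale it was 0.95 ± 0.41 in MR at 20 weeks and 0.33 ± 0.37 in Sham (SD, n = 5 each), a difference of 0.62 with overlapping ranges (exact permutation p = 0.0476, adjusted p = 0.190). At 40 weeks it was 0.44 ± 0.21 in MR, a difference of 0.11. The differences at 2 and 10 weeks were 0.29 and 0.14. None of the 8 ratio tests passed after adjustment, but with so few libraries 1 ratio alone could not have passed.

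**Figure D3:**
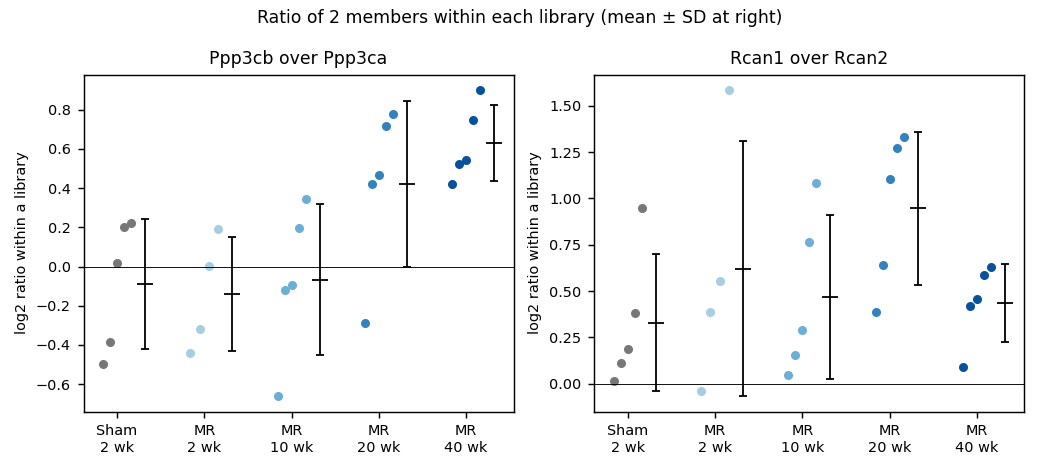
Log2 ratio of Ppp3cb to Ppp3ca (left) and of Rcan1 to Rcan2 (right) within each library, for Sham at 2 weeks and MR at 2, 10, 20 and 40 weeks; points are libraries and bars the mean ± SD. The Ppp3cb ratio at 40 weeks (0.42 to 0.90) lies above all Sham libraries (-0.50 to 0.22), and the Rcan1 ratio is highest at 20 weeks with wide overlap.

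Times of MR were compared with each other on a scale that joins the 4 tables, in a single limma fit of 9984 genes over all 24 libraries. MR at 40 weeks was higher than MR at 10 weeks in 8 of 8 members, against 28.1% of all genes, with every later library above every earlier one in 8 of 8, against 20.9% of all genes. The log2 fold changes there ran from 0.60 ± 0.13 for Ppp3r1 to 1.64 ± 0.17 for Ppp3cb, with Mef2d at 1.56 ± 0.19 and Mef2a at 1.52 ± 0.22. Against MR at 2 weeks, 8 of 8 were higher and 24.3% of all genes were. Here 6 of 8 did not overlap, against 17.9% of all genes, and the changes ran from 0.57 ± 0.18 for Ppp3ca to 1.31 ± 0.18 for Ppp3cb.

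Against MR at 20 weeks, 6 of 8 members were higher at 40 weeks, against 21.3% of all genes, and 7 of 8 did not overlap, against 13.2% of all genes. Mef2a led with 1.32 ± 0.22, followed by Mef2d with 1.31 ± 0.19, Ppp3cb with 1.12 ± 0.17, Nfatc3 with 1.003 ± 0.16, Ppp3ca with 0.90 ± 0.17 and Ppp3r1 with 0.40 ± 0.13. The call of Ppp3r1 (adjusted p = 0.0175) was lost without MR replicate 1 at 20 weeks (adjusted p = 0.0637) or MR replicate 5 at 40 weeks (adjusted p = 0.0537). The regulators did not pass. Rcan2 was at 0.60 ± 0.24 (adjusted p = 0.0528), and passed with library weights, by DESeq2 and in a fit of these 2 groups alone (adjusted p = 0.00813, 0.0398 and 0.00653). Rcan1 was at 0.09 ± 0.21 (adjusted p = 0.763).

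Between 20 and 2 weeks of MR, Rcan1 was the 1 member of 8 that passed, against 4.01% of all genes passing as higher. That share ran from 1.35% without MR replicate 2 at 20 weeks to 6.1% without MR replicate 1 at 20 weeks. It had 340.5, 500.1, 318, 447 and 379.6 normalised reads on the joined scale in MR at 20 weeks, against 208, 168, 200.4 and 304 in MR at 2 weeks. The groups did not overlap. The log2 fold change was 0.86 ± 0.23 (adjusted p = 0.0218), and the call was lost without replicate 1, 2 or 3 at 2 weeks or replicate 2 or 4 at 20 weeks (adjusted p between 0.0512 and 0.0666). Ppp3r1 was at 0.43 ± 0.14 (adjusted p = 0.0515).

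Between 20 and 10 weeks, 0 of 8 members passed and 0.01% of all genes did. Rcan1 was again the highest at 0.82 ± 0.21 (adjusted p = 0.205), with Ppp3cb at 0.52 ± 0.17 (adjusted p = 0.239). Between 10 and 2 weeks, 0 of 8 passed and 1.37% of all genes did. Mef2a had 14.04, 12.9, 5.95, 17.1 and 14.4 normalised reads at 10 weeks, against 25.2, 20.6, 18.03 and 17.2 at 2 weeks, a complete separation by a narrow margin. Its log2 fold change was -0.67 ± 0.24 (adjusted p = 0.163), and that of Mef2d was -0.41 ± 0.20 (adjusted p = 0.324).

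By mean level on the joined scale, from Sham through MR at 2, 10, 20 and 40 weeks, Rcan1 had 231 ± 69.7, 220 ± 58.7, 229 ± 67.8, 397 ± 75.5 and 420 ± 54.6 normalised reads. Rcan2 had 186 ± 65.6, 151 ± 58.7, 161 ± 20.9, 207 ± 44.1 and 309 ± 26.2. For Ppp3cb the means were 13.7 ± 3.87, 12.9 ± 1.46, 10.1 ± 1.67, 15.2 ± 4.12 and 33.4 ± 4.25 (SD; n = 4 in MR at 2 weeks, otherwise 5). The mean of Ppp3cb at 40 weeks was thus far above the other 4, while the means of Rcan1 at 20 and 40 weeks were within 1 SD of each other. For Mef2a they were 14.8 ± 1.18, 20.3 ± 3.58, 12.9 ± 4.17, 14.4 ± 2.58 and 39.1 ± 13.3, and for Mef2d 20.4 ± 3.64, 21.3 ± 3.33, 15.8 ± 2.45, 19.4 ± 5.21 and 49.6 ± 13.6. The remaining 3 members averaged 51.3, 45.4, 53.0, 61.3 and 81.1 for Ppp3r1, 14.2, 14.3, 10.8, 11.4 and 21.7 for Ppp3ca, and 10.7, 10.1, 9.48, 10.4 and 21.6 for Nfatc3.

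The other genes of the pathway were read in 7 lists, of which none had a gene passing against Sham at 2, 10 or 20 weeks. Of the genes in these lists, Ppp3r2, Rcan3, Akap5, Myoz3, Mef2b, Hdac7, Camk4, Ep300, Xirp1 and Trpc6 are not listed. At 40 weeks the NFAT kinases, which phosphorylate NFAT factors and send them out of the nucleus, had 5 of 8 higher and 0 lower, beside 16.3% higher and 30.9% lower over all genes, with a median log2 fold change of 0.48 beside -0.15. After rescaling, 7 of 8 were higher, beside 23.7% of all genes. Gsk3b had 7.36 ± 2.30 normalised reads in MR and 2.28 ± 0.48 in Sham, a log2 fold change of 1.31 ± 0.20. Csnk1a1 rose by 1.24 ± 0.21, Gsk3a by 0.87 ± 0.18 and Csnk1e by 0.52 ± 0.15.

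The regulators and anchors of calcineurin had 1 of 8 higher and 3 lower, beside 16.3% higher and 30.9% lower over all genes, with a median of -0.14 beside -0.15. Myoz2, which tethers calcineurin at the Z-disc of the sarcomere and is known to restrain it in the mouse heart, had 261 ± 31.9 normalised reads in MR at 40 weeks and 461 ± 62.0 in Sham. Its log2 fold change was -0.82 ± 0.15 (adjusted p = 0.000679). Cib1, which anchors calcineurin at the cell membrane, was at -0.50 ± 0.14 and the calcium pump Atp2b4 at 0.56 ± 0.16. Chp2, at -0.43 ± 0.17, had an adjusted p of 0.0468. Its call was lost on rescaling (adjusted p = 0.141), with library weights, by edgeR, by DESeq2 and in the joint fit (adjusted p up to 0.171), and in 8 of 10 fits without a library.

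Among the remaining calcium and NFAT genes the changes went both ways. Ppp3cc, the third catalytic form, was at 0.36 ± 0.16 (adjusted p = 0.0691) and passed after rescaling (0.50, adjusted p = 0.0124). The calmodulin genes Calm3 and Calm2 did not pass, at -0.16 and -0.07, and Calm2 was at 0.09 after rescaling. The other NFAT factors had 1 of 4 higher (Nfatc1, 0.35 ± 0.12, adjusted p = 0.0266) and 1 lower (Nfat5, -0.49 ± 0.11, adjusted p = 0.00275). Nfat5 is the family member that calcineurin does not control. Nfatc4 was at -0.32 ± 0.14 (adjusted p = 0.0812) and Nfatc2 at -0.06 ± 0.15. The call of Nfatc1 was lost on leaving out MR replicate 2 or 5 or Sham replicate 1 or 2 (adjusted p up to 0.0676).

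Of the repressors, kinases and partners of MEF2, 15 had a mean of at least 1 in both groups, and 3 of these were higher and 4 lower, near the shares over all genes (16.3% and 30.9%). After rescaling 5 were higher and 3 lower, beside 23.7% and 21.8% of all genes. Camk2g rose by 1.04 ± 0.17 and Gata4, a cardiac factor that works with NFAT and MEF2, by 1.17 ± 0.20. Prkd2, of the kinase family that releases class IIa deacetylases from MEF2, was lower at -0.74 ± 0.14. Camk2b, a calcium and calmodulin-dependent kinase, is left out of these counts, since it reached the minimum mean through the MR group alone: it had 5.57 ± 1.73 normalised reads in MR at 40 weeks and 0.86 ± 0.38 in Sham (SD, n = 5 each).

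Genes described as NFAT or MEF2 targets in heart or muscle had 4 of 11 higher and 1 lower, beside 16.3% higher and 30.9% lower over all genes, with a median of 0.36. The counts were the same after rescaling. Ppargc1a, a regulator of mitochondrial genes, rose by 1.34 ± 0.28, Smyd1, a muscle methyltransferase, by 1.26 ± 0.21, and Xirp2, an actin-binding protein of the intercalated disc, by 1.16 ± 0.27. Ckm, the muscle creatine kinase, had 1435 ± 230.2 normalised reads in MR at 40 weeks and 2124 ± 200.1 in Sham (SD, n = 5 each), a log2 fold change of -0.58 ± 0.18. The natriuretic peptide genes of the list, Nppa and Nppb, did not pass (adjusted p = 0.423 and 0.509). Myh7, with Ppargc1a, Smyd1 and Xirp2, made up the 4 genes of the list that were higher after rescaling (Myh7 log2 fold change 0.97, limma, adjusted p = 0.0181).

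**Figure D4:**
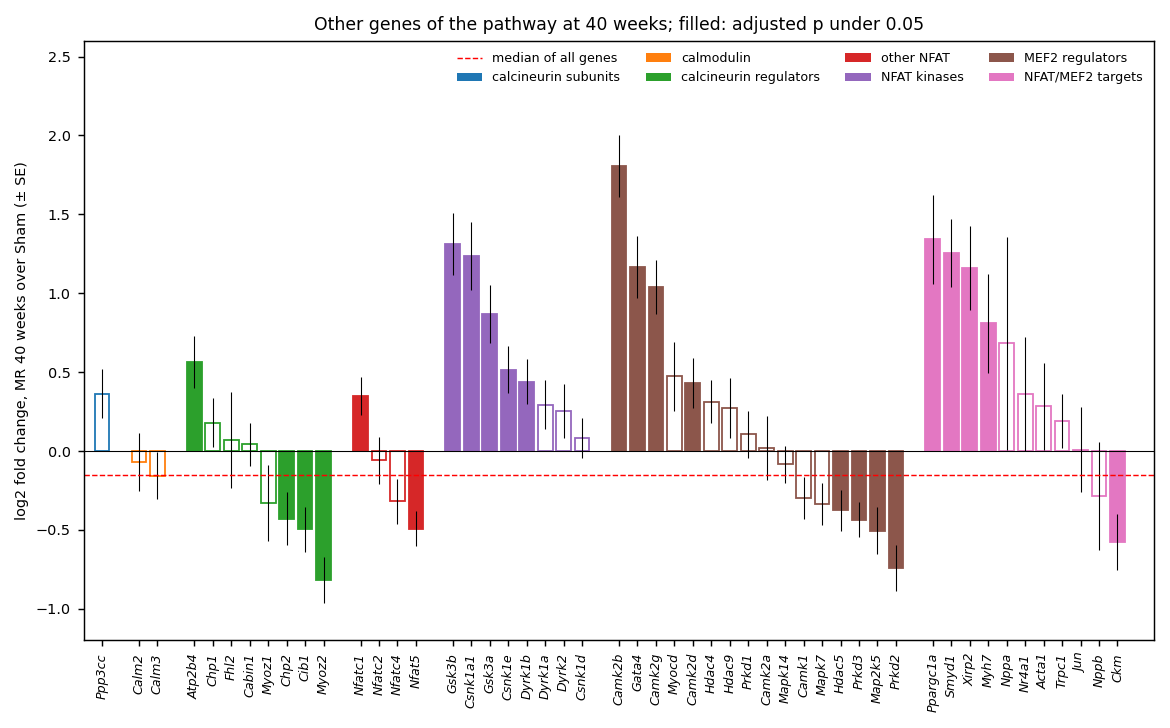
Log2 fold change of MR at 40 weeks over Sham (vertical axis, ± SE from limma) for the listed genes of 7 pathway lists, ordered within each list; filled bars passed at an adjusted p under 0.05 and the dashed line is the median of all genes (-0.15). All 8 NFAT kinases are above 0, with 5 passing, while the regulators and the MEF2 list go both ways. Camk2b is drawn filled, but it reached the minimum mean through the MR group alone and is left out of the counts in the text.

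The genes whose levels ran most like those of the regulators were found by the root mean square distance between centred log2 values over the 24 libraries. For Rcan1 these were Ankrd1, Clu and Slc3a2, each at a distance of 0.31, against a median distance of 0.63 over all genes and a spread of 0.54 of Rcan1 about its own mean. Ankrd1, a stretch-responsive cardiac gene, averaged 2780, 2788, 4021, 5084 and 5210 normalised reads on the joined scale from Sham through MR at 2, 10, 20 and 40 weeks. Against Sham within each table it was at 0.58 ± 0.24 on the log2 scale at 10 weeks, 0.87 ± 0.20 at 20 weeks and 0.74 ± 0.23 at 40 weeks, and passed at 40 weeks (limma, adjusted p = 0.361, 0.160 and 0.0167). At 40 weeks Clu passed too (limma, adjusted p = 0.0198) and Slc3a2 did not (adjusted p = 0.243). These genes were picked for their likeness to Rcan1 in the same libraries, so their tests are no separate support. For Rcan2 the nearest were Ubac1 and Lynx1 at 0.13 and Mapkapk2 at 0.14, against a median of 0.61 over all genes and a spread of 0.54 of Rcan2 itself. Mapkapk2, a kinase downstream of p38, averaged 225, 184, 216, 259.6 and 387 in the same order. Against Sham at 40 weeks Lynx1 and Mapkapk2 passed and Ubac1 did not (limma, adjusted p = 0.0153, 0.0230 and 0.0949), with the same limit from their choice.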

How the data were processed

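RNA of 24 rat myocardium libraries was read from 4 tables, each holding MR at 1 time beside the same 5 Sham libraries. Per the submitters' processing notes, the authors used Partek and the build rn6; aligner, annotation, counting rule, strand and scaling were not given in the sources used here. Deposited values are in unit signal and were taken as gene counts divided by 1 factor per library. The factor was fitted starting from the lowest value of each library as 1 read. Once it was undone, 97.7 to 97.8% of values were within 0.1 read of whole reads. This share covers only values low enough for the printed digits to show it. Factors differ between tables (Sham ratios 0.916 to 1.00), so levels set across tables use 1 joined, median-ratio scale. The recovered reads were tested with edgeR 4.0.16 and DESeq2 1.42.0 as alternatives.

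The main test was limma 3.58.1 (R 4.3.3) on log2(value + 1), with a mean trend, a mean of at least 1 and Benjamini-Hochberg adjustment over all genes tested; that scale understates changes of low genes. Tests were two-sided. MR was set against Sham within each table. Ratios used exact permutation tests. Alternatives were another pseudocount, filter, weights, rescaling, a joint fit and leaving out each library.

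The members and lists were chosen with earlier results of these data known. Named genes were the members, up to 4 genes per list with the smallest p at 40 weeks, and the 3 nearest genes to Rcan1 and Rcan2. Nppa, Nppb, Myh7 and the cell type markers given by name were chosen after their values were seen. A few list genes are not reported here. Promoter windows are from RefSeq (GRCr8); 7 of the 9 members matched. Rn6 positions are as the tables give them. The labels' running library numbers pair no groups.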

Additional observations from a re-analysis of the deposited data

Results flagged for a closer look

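Levels of Ppp3ca in Sham held 1 library far from the others: replicate 5 had 16.61 normalised reads on the joined scale, the next 14.1 and the lowest 13.04. Of 40 sets of libraries examined in this way, chance gives about 1 in 20.

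The MR times differed from each other in the following members, each past an adjusted p under 0.05 by limma. At 20 weeks against 2 weeks Rcan1 was at 0.86. At 40 weeks against 2 weeks the log2 fold changes were 0.95 for Rcan1, 1.14 for Rcan2, 0.57 for Ppp3ca, 1.31 for Ppp3cb, 0.84 for Ppp3r1, 1.03 for Nfatc3, 0.85 for Mef2a and 1.15 for Mef2d. At 40 weeks against 10 weeks they were 0.91 for Rcan1, 0.94 for Rcan2, 0.97 for Ppp3ca, 1.64 for Ppp3cb, 0.60 for Ppp3r1, 1.10 for Nfatc3, 1.52 for Mef2a and 1.56 for Mef2d. At 40 weeks against 20 weeks they were 0.90 for Ppp3ca, 1.12 for Ppp3cb, 0.40 for Ppp3r1, 1.003 for Nfatc3, 1.32 for Mef2a and 1.31 for Mef2d.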

How the results depend on the processing

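The 8 members called higher at 40 weeks against Sham became 7 with a mean of at least 10 or with library weights, Rcan2 being lost (adjusted p = 0.0531 and 0.0554), and stayed 8 under the other alternatives. Over all genes, 886 of 5444 passed as higher with a mean of at least 10 and 1650 of 10094 with library weights. Leaving out single libraries gave 6 to 8 members, beside 13.1 to 17.2% of all genes higher. At 20 against 2 weeks of MR, 2 members passed with a mean of at least 10, library weights or DESeq2, in place of 1. Over all genes, 393 of 5561, 715 of 9984 and 547 of 10129 were higher in those fits. Leaving out a library there gave 0 to 2 members, beside 1.35 to 6.1% of all genes higher. At 20 against 10 weeks 2 passed with library weights (Rcan1 and Ppp3cb) in place of 0, beside 399 of 9984 genes higher. At 40 against 20 weeks leaving out a library gave 5 to 7 members, beside 17.7 to 23% of all genes higher. The causes were not tested. Whole-table counts under other settings were, at 2 weeks against Sham, 0 in the main fit and by edgeR, 22 with weights, 27 in a joint fit and 65 by DESeq2; at 10 weeks 17, with 5 by edgeR and after rescaling, 3 jointly, 27 with weights and 85 by DESeq2; at 20 weeks 7, with 30 with weights, 11 jointly and 93 by DESeq2. At 40 weeks the passing genes numbered 4772, of which 1648 were higher, and 2453 of 4621 were higher by edgeR, 2514 of 4912 by DESeq2 and 2391 of 4409 jointly. Between MR times, 10 against 2 weeks had 137, but 1185 with weights, 372 by DESeq2, 33 with a mean of at least 10 and 45 with only those groups; 20 against 2 weeks 880, but 1711 and 435; 20 against 10 weeks 1, but 762 with weights. Leaving out 1 library at 10 weeks against Sham gave 0 (MR replicate 1, 2 or 3, Sham 4 or 5) to 29 (MR replicate 5 or Sham 1), with 7 without MR replicate 4. At 20 weeks it gave 2 (Sham 4 or 5), 3 (MR replicate 2, 3 or 4) or 14 (MR replicate 5). At 10 against 2 weeks it gave 52 to 306, past 1.5 times without any replicate at 2 weeks or replicate 1 or 3 at 10 weeks. At 20 against 2 weeks it gave 394 to 1194, past 1.5 times without replicate 1 or 3 at 2 weeks or 2, 3 or 4 at 20 weeks. At 20 against 10 weeks it gave 1 to 7, with 7 without MR replicate 1 at 2 weeks and 2 to 4 without MR replicate 5 at 10 weeks, 1 or 2 at 20 weeks or 1 at 40 weeks, or Sham 3 or 5.

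Values that changed sign never passed the test. At 2 weeks against Sham, Ppp3ca was at 0.000258 in the joint fit, and Mef2d at 0.0358 by edgeR, 0.049 by DESeq2, 0.0511 rescaled and 0.0663 jointly. At 10 weeks, Rcan1 was at -0.0617 with weights, -0.0144 by edgeR, -0.0229 by DESeq2 and -0.0081 rescaled, and the log2 Ppp3cb to Ppp3ca ratio at -0.11 by medians. At 40 weeks, Calm3 was at 0.0246 by edgeR, 0.00926 by DESeq2 and 0.0224 jointly, Calm2 at 0.0822, 0.0674, 0.11 and, rescaled, 0.088, and Nfatc2 at 0.12, 0.11, 0.10 and, rescaled, 0.078. On leaving out single libraries at 2 weeks, Rcan1 ran over -0.37 to 0.0138, Nfatc3 -0.22 to 0.0216, Mef2d -0.11 to 0.0668, the Rcan1 to Rcan2 ratio -0.0303 to 0.51 and the Ppp3cb to Ppp3ca ratio -0.16 to 0.0475. At 10 weeks, Rcan1 ran over -0.16 to 0.20, Rcan2 -0.26 to 0.0742, Nfatc3 -0.15 to 0.0857, Mef2a -0.30 to 0.0362, and the ratios -0.0174 to 0.29 and -0.081 to 0.17. At 20 weeks, Rcan2 ran over -0.000802 to 0.34, Nfatc3 -0.13 to 0.11, Mef2a -0.10 to 0.0215 and Mef2d -0.20 to 0.0313, and at 40 weeks Calm2 -0.15 to 0.0807. No paired analysis was possible because the labels number the libraries in 1 run that pairs no groups. The planned ratio of Mef2c to Mef2a was not run, since Mef2c is not listed. Each member had 141 or more reads per library. The spread between libraries, of which counting error is a part, limits the precision, and the size of that part was not measured. It may not be small in tight groups, such as Ppp3ca in Sham at 247 to 340 reads (SD 10.6% of the mean beside MR at 40 weeks).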
